A study of Mus musculus with 3 samples.

Results

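Tandem YY1 peak clusters are places where the YY1 peaks of one cell sort lie in close succession along a chromosome. They were taken from the peak list of replicate 1 as the peaks, called intervals here, on chromosomes 1 to 19 that had another replicate 1 interval less than 500 bp away, measured between the facing edges. This rule found 285 tandem intervals among the 3438 replicate 1 intervals on these 19 chromosomes and the 3691 in the whole list. Chained neighbour to neighbour, the 285 formed 115 groups. The other 3153 intervals of the same chromosomes had no such neighbour and are called isolated. The members were chosen by the positions called in replicate 1, so their spacing, widths and scores in replicate 1 are given as descriptions. The rule does not use the replicate 2 list, although it was set with earlier results of these data known. All tests below ask what replicate 2 held at these places.

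Both lists come from chromatin immunoprecipitation and sequencing (ChIP-seq) with an anti-YY1 antibody. The cells were cardiac progenitor cells derived from C57BL/6 mouse embryonic stem cells that carried a GFP reporter driven by Nkx2.5, a homeodomain factor of early heart cells. The stem cells, kept on inactivated embryonic fibroblasts, were differentiated as embryoid bodies for 6 days, and GFP-positive cells were sorted. The 2 ChIP samples were sorted independently and both carry the reporter transgene, which defines the cells by its own activity. The input sample was not analysed here. No expression values were used here, so the labelled cell type could not be checked against marker genes.

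YY1 is a widely expressed zinc-finger protein that recognises a short sequence with the core CCAT. It can activate or repress transcription through the partners it recruits, and it is known for connecting enhancers with promoters. Several YY1 recognition sites in a row have been described at control regions of some imprinted genes. Coordinates below are those of the mouse build mm9, counted from 1. No mm9 sequence or gene annotation was used here, so groups are named by position and neither motifs nor genes are assigned to them.

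Replicate 1 and replicate 2 differed widely in list length, with 3691 and 115109 intervals. The score of an interval is the authors' peak-caller value. A higher score was read as a stronger call within its own list, and scores were not compared between lists. Median scores were 77.3 for replicate 1 and 129 for replicate 2. The depth of the libraries is unknown, since the files hold no read totals. Exact binomial (Clopper-Pearson) intervals, all at 95%, cover counting error only. The p-values compare places with each other within 1 pair of lists, and the variation from culture to culture does not enter them.

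Most groups were small. Pairs made up 90 of the 115 groups and triplets 14, and 11 groups held 4 to 10 intervals. From its first to its last base a group spanned a median of 353 bp, between 162 and 3519 bp. The 170 gaps within groups had a median of 75 bp (interquartile range 30.25 to 187.5 bp), and neighbouring midpoints lay a median of 210.5 bp apart. Tandem intervals were wider than isolated ones, with medians of 101 and 81 bp, while their median scores were close, at 76.4 and 77.7. Groups occurred on 18 of the 19 chromosomes. Chromosome 7 held 16 groups, chromosome 15 held 12, and chromosome 10 held none of its 181 intervals in a group.

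Replicate 2 called a group either whole or not at all, with 1 exception. An interval was counted as called when it shared 1 bp or more with a replicate 2 interval. Of the 115 groups, 43 had a called member (37.4%, 28.5 to 46.9%) and 72 had none. In 42 of the 43 called groups every member was called (97.7%, 87.7 to 99.9%). The exception was a pair on chromosome 12 from 102056787 to 102057155, of which 1 member was called. Counted by interval, 98 of 285 tandem intervals were called (34.4%, 28.9 to 40.2%), where 42.4% of all replicate 1 intervals on these chromosomes were. The intervals of a group share their surroundings, so the group is the unit of the tests below.

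A single wide replicate 2 peak was the usual form of a called group. In 36 groups (31.3% of 115, 23.0 to 40.6%) at least 2 members lay under 1 replicate 2 interval and no other replicate 2 interval met the group. In 6 groups (5.22%, 1.94 to 11.0%) 2 replicate 2 intervals met at least 2 members. The 36 groups were met by 35 distinct replicate 2 intervals, since 1 very wide peak took in 2 groups. These peaks were 219 to 6606 bp wide, with a median of 510 bp, and 35 of the 36 groups lay wholly inside their peak. The peak reached a median of 55.5 bp beyond the group at each end. Of the 56 gaps inside called groups, 49 were bridged without a break by 1 replicate 2 interval, and replicate 2 covered 90.5% of the 5150 bases in these gaps. In no group without a called member did a replicate 2 interval lie between the members.

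The called groups include some of the strongest peaks of both lists, although more of these were isolated. In replicate 1, 2 tandem and 11 isolated intervals on chromosomes 1 to 19 scored 1000 or more, and all of them were called. The called groups are described in order of their replicate 2 score and then of their highest replicate 1 score. In replicate 2, 102 intervals on chromosomes 1 to 19 shared the score of exactly 3100, so the order among groups at that value rests on replicate 1. The first was a pair on chromosome 18 from 48248006 to 48248208. Its replicate 1 intervals were 107 and 80 bp wide and scored 222 and 123, and 1 replicate 2 interval of 219 bp with a score of 3171.31 took in both. This was the only group whose partner scored above 3100, and its partner was the narrowest among the single wide peaks. With so many intervals at exactly 3100 and the score formula not given, a score above 3100 may not mark a stronger call.

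A pair on chromosome 17 from 35007813 to 35008304 held the highest replicate 1 score of any tandem interval, 2302. That interval, 203 bp wide, stood beside one of 39 bp with a score of 125. Replicate 2 also called 2 separate intervals here, of 201 and 279 bp, which scored 813 and 3100. The weaker interval lay on the same side in both lists, and each replicate 2 interval met 1 replicate 1 interval.

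On chromosome 11, the pair from 112200679 to 112201446 joined an interval of 460 bp with a score of 1099.83 to one of 63 bp with a score of 105. Replicate 2 had a single interval of 926 bp across both. The triplet on chromosome 5 from 133323238 to 133323955 scored 89.1, 854 and 516 along the chromosome in replicate 1, and 1 replicate 2 interval of 905 bp held all of it. In both groups the weaker replicate 1 calls flanked a strong one, and replicate 2 merged them.

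Chromosome 15 contributed 3 pairs to this set. Their strongest replicate 1 intervals scored 429 (93375309 to 93375801), 317 (97136769 to 97137034) and 243 (35059640 to 35060127), and their replicate 2 peaks were 519, 291 and 697 bp wide. The replicate 2 peak of the last pair ended 12 bp short of the group's end, and it was the only single wide peak that did not hold its whole group. The set closes with a pair on chromosome 12 from 113496949 to 113497373 (scores of 300 and 229, replicate 2 peak of 600 bp) and a triplet on chromosome 1 from 186902631 to 186903027 (scores of 193, 102 and 246, replicate 2 peak of 552 bp). All 5 of these replicate 2 peaks scored 3100.

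**Figure D1:**
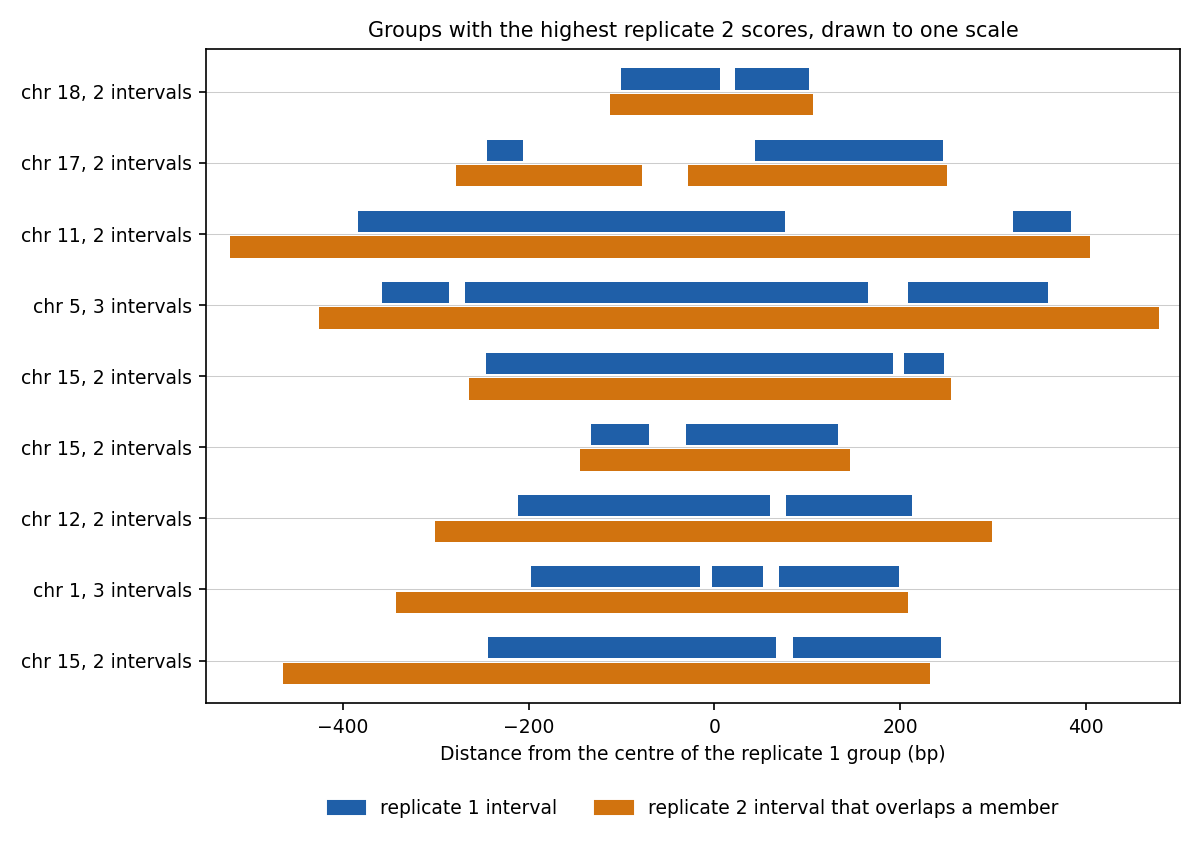
Replicate 1 intervals (blue) and the replicate 2 intervals that overlap them (orange) in 9 of the 10 groups with the highest replicate 2 scores, by distance in bp from the centre of the replicate 1 group; the group of 9 intervals on chromosome 4 is left out because of its length. A single replicate 2 interval spans the replicate 1 intervals in each group except the pair on chromosome 17, where replicate 2 also has 2 intervals.

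Long groups were mostly missing from replicate 2. Of the 11 groups of 4 or more intervals 1 was called (9.09%, 0.230 to 41.3%), against 42 of 104 pairs and triplets (40.4%, 30.9 to 50.5%). This split by size was made after the values had been seen and was not tested. The long groups are not all separate places, which the interval of the share does not take into account. On chromosome 7, the groups from 71612847 and from 71614213 lay 516 bp apart. The group from 106446390 lay 511 bp from an uncalled triplet. The called long group was that of 9 intervals on chromosome 4 from 129880452 to 129883970, with replicate 1 scores from 66.3 to 998. Its replicate 2 partner, from 129879365 to 129885970, was 6606 bp wide and scored 3100. The same peak also covered a further pair from 129885639 to 129885936, so that 11 replicate 1 intervals, 2935 bp in all, lay inside 1 replicate 2 interval.

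The longest series of intervals was absent from replicate 2. On chromosome 15, 10 intervals followed each other from 99000120 to 99001977, 43 to 176 bp wide and with scores from 64.8 to 174. The nearest replicate 2 interval was 18183 bp away. On chromosome 11, 7 intervals from 102909312 to 102911005 scored only 59.4 to 87.7, and the nearest replicate 2 interval lay at 4335 bp. The 6 intervals on chromosome 13 from 38734507 to 38735406 were packed so closely that they covered 92% of their span, at scores from 64.8 to 149. None of them was called in replicate 2 either.

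Replicate 2 also lacked the 3 groups of 5 intervals. The one on chromosome 7, from 71614213 to 71615229, had a highest score of 62.0, and that on chromosome 19, from 37373589 to 37374891, had one of 96.5. The third, on chromosome 13 from 74665915 to 74667609 with a highest score of 122, stood farthest from any replicate 2 interval among the 11 long groups, at 140545 bp. Of the 4 groups of 4 intervals, the one on chromosome 6 (142698957 to 142699782) peaked at a score of 204 and the one on chromosome 12 (4110862 to 4112187) at 154. Chromosome 7 carried both others, which began at 71612847 and 106446390, ended at 71613696 and 106447537, and peaked at 118 and 98.6. Every long group without a call thus had a highest score of 204 or less, while the called one reached 998.

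**Figure D2:**
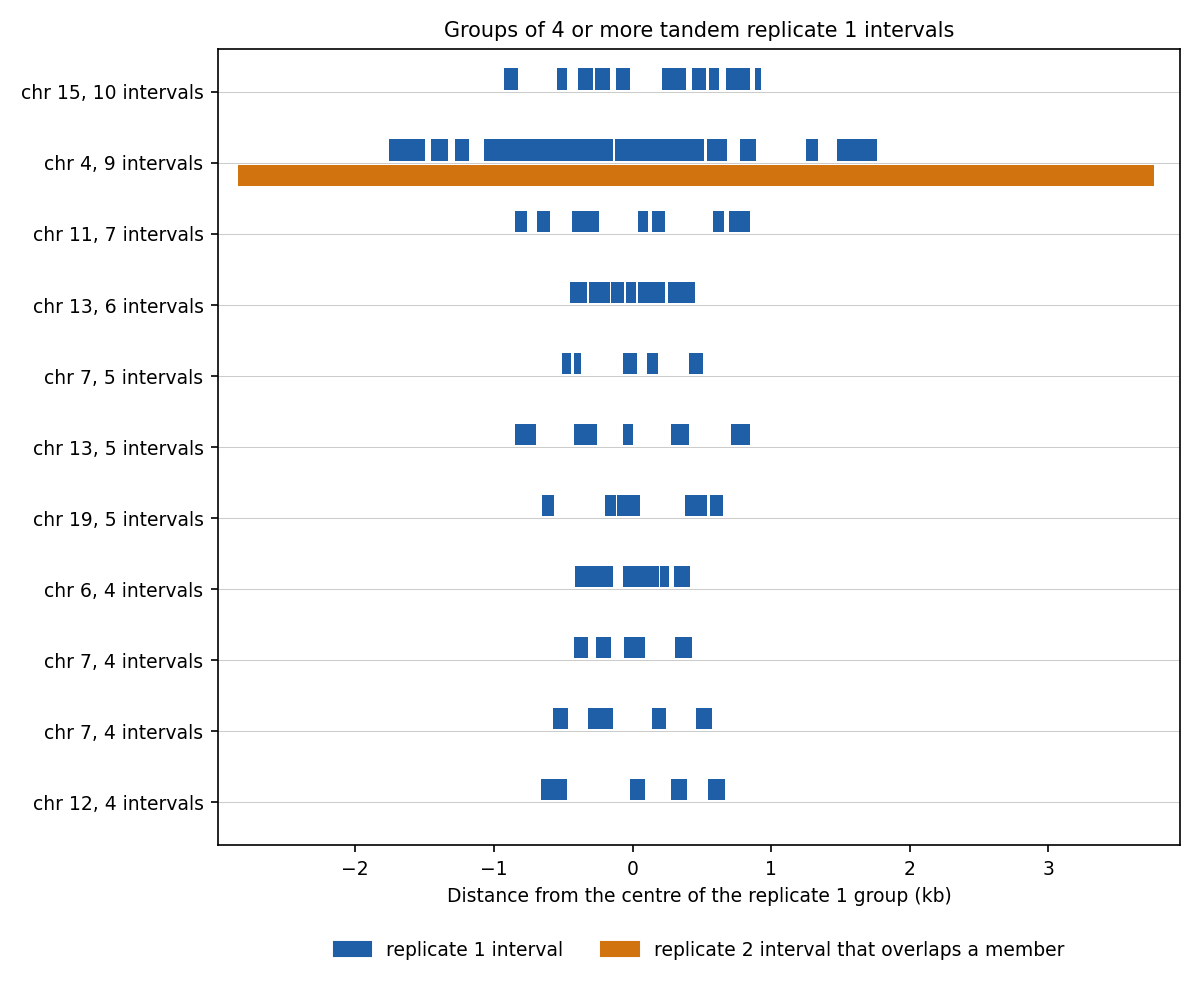
The 11 groups of 4 or more replicate 1 intervals (blue), by distance in kb from the centre of the group, with overlapping replicate 2 intervals (orange). Only the group of 9 on chromosome 4 has a replicate 2 partner, 6606 bp wide; the other 10 rows show no replicate 2 interval.

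Among all groups without a call, replicate 1 scores reached 214 at most. That score belonged to a pair on chromosome 9 from 56071397 to 56071751, whose other interval scored 66.8, with a replicate 2 interval 1974 bp away. The next were the groups on chromosome 6, 15 and 12 already described, and a triplet on chromosome 14 from 80063677 to 80064412 with scores of 153, 81.2 and 118. Of the 14 groups with a score of 200 or more, 12 were called. Of the 59 isolated intervals at such a score 50 were called, so this share was not particular to groups. The highest score of a group had a median of 125 in called groups and 81.6 in the others. Isolated intervals, with 1 score each, had medians of 84.5 when called and 75.3 when not. Gaps were narrower in called groups, with a median of 50 bp over 56 gaps against 96 bp over 114 gaps. Gaps were pooled here, so groups with more intervals weigh more, and a value per group was not worked out. Members of called and of uncalled groups had similar widths, with medians of 100 and 102 bp.

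Some uncalled groups contained intervals of equal width and score. In 6 groups 2 intervals had the same width and the same score, and none of the 6 was called, where 43 of all 115 groups (37.4%) were. Examples are pairs on chromosome 17 from 57295919 to 57296133 (both 103 bp, score 58.7), chromosome 18 from 75040385 to 75040680 (both 88 bp, score 80.2) and chromosome 5 from 90184758 to 90185155 (both 96 bp, score 78.3). The series of 10 on chromosome 15 and the group of 4 on chromosome 12 also had such a match. This was noticed in the data, and 6 groups are few. How often other intervals of the list share both width and score was not worked out, and what matches in these places was not tested.

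The densest stretch lay on chromosome 7. Between 71610888 and 71638732, a stretch of 27845 bp, replicate 1 had 29 intervals, each less than 5 kb from the next. It was the longest such run on chromosomes 1 to 19, and the next had 12 intervals. Of the 29 intervals 20 were tandem, in 7 groups, and scores ran from 51.6 to 130 with a median of 63.3. Replicate 2 had no interval in the stretch, and its nearest one was 6071 bp away. Within 50 kb on either side it had 9, with scores from 66.8 to 595.5. The stretch holds 7 of the 16 groups of chromosome 7, on which 2 groups were called.

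**Figure D3:**
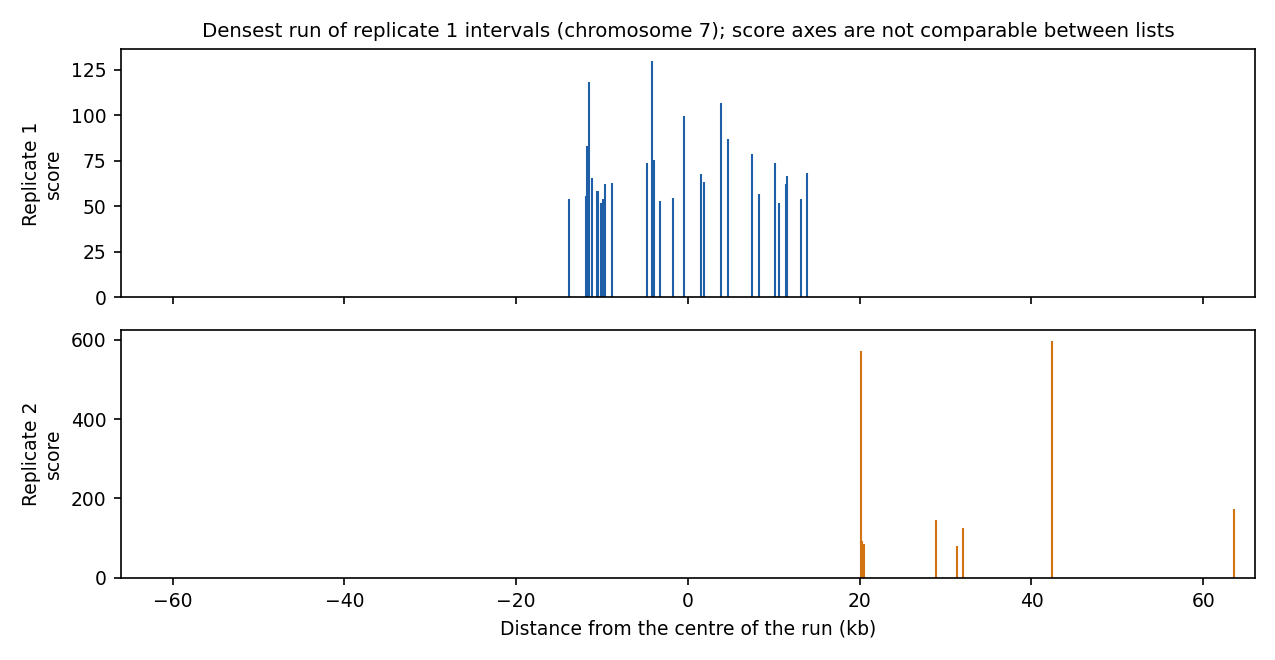
Scores of replicate 1 intervals (top, blue) and replicate 2 intervals (bottom, orange) by distance in kb from the centre of the densest replicate 1 run, on chromosome 7; each line is 1 interval, and the score axes of the lists are not comparable. All 29 replicate 1 intervals lie in the run, and all 9 replicate 2 intervals lie to one side of it.

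A second, looser stretch was found on chromosome 6 from 47609255 to 47688186. Its 4 pairs and 4 isolated intervals scored 54.6 to 96.3, and none of the 12 was called although replicate 2 had 2 intervals in the same 78932 bp. Chromosome 6 had 8 groups in all and no called one. Chromosome 15, with 12 groups, had 7 called, where 43 of all 115 groups (37.4%) were. Both chromosomes were picked after the counts had been seen. These counts are small, and the 8 groups of chromosome 6 include the 4 pairs of this stretch. The called share of all intervals on each chromosome was not worked out, and a difference between chromosomes was not tested. Groups lying within 100 kb of each other formed 5 such places, of which the one on chromosome 4 was called.

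Whether groups as a class were called more or less often than isolated intervals depended on how they were matched. Over all units, groups and isolated intervals together, 43.0% overlapped replicate 2. The share was 37.4% of the 115 groups and 43.2% (41.4 to 44.9%) of the 3153 isolated intervals. This is an odds ratio of 0.786 (95% interval 0.522 to 1.17), and no difference was detected (Fisher's exact test, two-sided, p = 0.250, also after Benjamini-Hochberg adjustment over the 4 tests made). Stratified by the highest replicate 1 score, groups were called less often, with a Mantel-Haenszel odds ratio of 0.570 (0.379 to 0.858, exact stratified test, two-sided, adjusted p = 0.00707). In the highest quartile of score 27 of 50 groups (54%) and 501 of 767 isolated intervals (65.3%) were called, and in the lowest 3 of 19 (15.8%) and 246 of 798 (30.8%). The score used for a group here was the highest among its members, and other scores per group were not tried. All 115 groups entered as separate units, among them the 7 of the densest stretch on chromosome 7. Without that chromosome the unstratified odds ratio was 0.938 (0.609 to 1.43). The comparison stratified by score was not repeated without it, nor with nearby groups counted once. Stratified by the widest replicate 1 interval, the odds ratio was 1.20 (0.807 to 1.79, exact stratified test, adjusted p = 0.408).

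The direction turned when only the strongest replicate 2 intervals were kept. With the replicate 2 list cut to its 3691 highest scores, the length of replicate 1, 40 of 115 groups (34.8%) and 565 of 3153 isolated intervals (17.9%) were called. The odds ratio was then 2.44 (1.60 to 3.67, Fisher's exact test, two-sided, adjusted p = 3.1e-05). Of the 43 groups called in the full list, 40 thus met this shorter list, as did 565 of the 1361 isolated intervals called in the full list. The cut selects on replicate 2 score, so this result is not separate from the comparison of partner scores below.

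Distance to the nearest neighbour showed where sharing was low. Replicate 1 intervals with a neighbour less than 100 bp away were called in 75 of 180 cases (41.7%, 34.4 to 49.2%). At 100 to 200 bp the count was 9 of 53 (17.0%, 8.07 to 29.8%), and at 200 to 500 bp it was 14 of 52 (26.9%, 15.6 to 41.0%). Isolated intervals just beyond the rule, with a neighbour at 500 bp to 5 kb, were called in 21 of 125 cases (16.8%, 10.7 to 24.5%). From 5 kb upward 1340 of 3028 were called (44.3%, 42.5 to 46.0%). Intervals of one group or stretch enter these counts several times, the bins were chosen after the values had been seen, and they were not tested. Median scores did not always run with these shares. The median was 88.4 at gaps under 50 bp and 64.9 at 100 to 200 bp. It was 73.6 at 50 to 100 bp, where 38.7% were called, and 74.0 at 500 bp to 5 kb, where 16.8% were. The part of score in the shares was not tested.

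**Figure D4:**
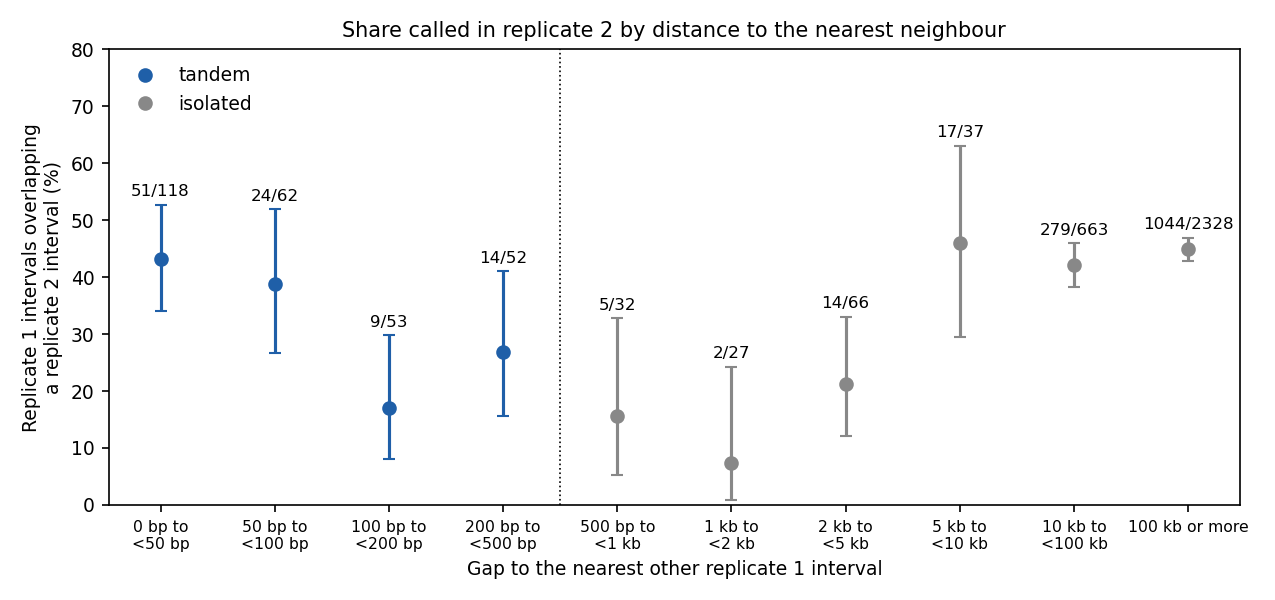
Percentage of replicate 1 intervals on chromosomes 1 to 19 that overlap a replicate 2 interval, by the gap to the nearest other replicate 1 interval; points are shares with 95% exact binomial intervals, labels give called over all, and the dotted line marks 500 bp. Shares are near 40% under 100 bp and from 5 kb upward and lower in between, with 16.8% at 500 bp to 5 kb.

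None of the pairs nearest to the 500 bp limit was called. The widest gaps inside it were 493, 474 and 470 bp, on chromosomes 7, 12 and 9, and the narrowest outside were 511, 516 and 516 bp, on chromosomes 7, 12 and 7. The 12 entries of these 6 neighbour pairs scored 52.3 to 106.59. Among all replicate 1 intervals, 26.9% were called at 200 to 500 bp from a neighbour and 15.6% at 500 to 1000 bp. With shares this low, 6 uncalled pairs do not set these places apart. The pair inside the limit from 71628480 and the pair outside it from 71613576 both lie in the densest stretch of chromosome 7, where no interval was called.

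Where replicate 2 did call a group, its peak was wide. The widest replicate 2 partner exceeded 200 bp in 42 of 43 called groups (97.7%) and in 296 of 1361 called isolated intervals (21.7%, 19.6 to 24.0%), where it did in 24.1% of all called units. The odds ratio was 151 (25.4 to 6114, Fisher's exact test, two-sided, adjusted p = 1.87e-25). Median partner widths were 497 bp (interquartile range 320 to 636.5 bp) for groups and 97 bp (67 to 173 bp) for isolated intervals. A replicate 2 peak that joins 2 members also spans their gap, as in 36 of the 43 called groups. In 35 of these 36 the peak held the whole group and was thus at least as wide as the group. Called groups spanned a median of 325 bp, above the 200 bp limit, while called isolated intervals had a median width of 68 bp. The test therefore cannot tell wide partners apart from the joining, and the part of the joining in the difference was not tested. Taking only the first member of each group gave an odds ratio of 71.7, but that member's partner is the same joining peak in the 36 groups. Stratified by replicate 1 width the odds ratio was 48.8.

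The partners also ranked high in replicate 2. A partner in the highest 10% of replicate 2 scores, from 296 upward, was found for 41 of 43 called groups (95.3%, 84.2 to 99.4%) and 830 of 1361 called isolated intervals (61.0%, 58.3 to 63.6%), against 62.0% of all called units. The odds ratio was 13.1 (3.38 to 112, Fisher's exact test, two-sided, adjusted p = 9.87e-07). It was 25.4 without chromosome 1, 6.43 when stratified by replicate 1 width, and 6.30 with the highest 25% as the limit. None of these alternatives held replicate 2 width equal, so the score was not tested apart from the width of the partner. A score of exactly 3100 was reached by 24 of the 43 groups (55.8%) and 55 of the 1361 isolated intervals (4.04%). The peak of 6606 bp on chromosome 4 counts for 2 of these groups. Of the 102 replicate 2 intervals at that score on chromosomes 1 to 19, 23 met a group, 55 met only isolated intervals and 24 met none. The 2 called groups below the limit were the partly called pair on chromosome 12 and a triplet on chromosome 1 from 73879194 to 73879713, with partner scores of 137 and 146.

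**Figure D5:**
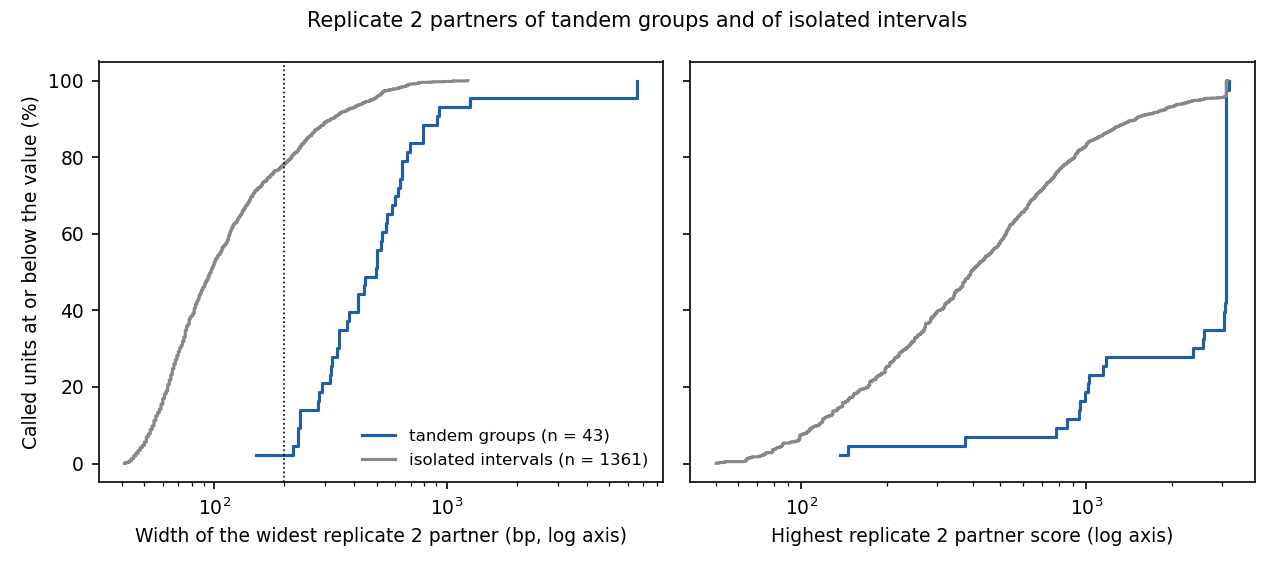
Cumulative share of called units by the width in bp of the widest replicate 2 partner (left) and by the highest replicate 2 partner score (right), both on log axes, for 43 tandem groups (blue) and 1361 isolated intervals (grey); the dotted line marks 200 bp. The curve of the groups lies to the right in both panels, with a median width of 497 bp against 97 bp, and rises steeply at 3100 in the score panel.

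A minority of the called groups had a partner with a close replicate 2 neighbour. A partner with another replicate 2 interval less than 500 bp away was present for 12 of 43 called groups (27.9%, 15.3 to 43.7%) and 156 of 1361 called isolated intervals (11.5%, 9.82 to 13.3%), where 12.0% of all called units had one. The odds ratio was 2.99 (1.37 to 6.13, Fisher's exact test, two-sided, adjusted p = 0.00422). In the 6 groups called as several peaks and in the partly called pair, that neighbour met the same group. The rule had placed the members of a group less than 500 bp apart, and an isolated interval has no such member. In the remaining groups of the 12 the neighbour met no member. The test therefore cannot separate recurring tandem calls from the rule that formed the groups. By the same Fisher's exact test, the difference was no longer past the threshold with neighbours within 250 bp in replicate 1 (2.22, adjusted p = 0.0604) or with the higher-scoring 50% of replicate 1 (2.42, adjusted p = 0.157). With the shortened replicate 2 list it rested on 3 of 40 groups and 9 of 565 isolated intervals, and the odds ratio of 4.98 had an interval from 0.833 to 21.1 that includes 1, beside an adjusted p of 0.0388 (Fisher's exact test).

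The 6 groups that replicate 2 called as several peaks were spread over 6 chromosomes. Besides the pair on chromosome 17, the pair on chromosome 12 from 107121179 to 107121738 had replicate 2 scores of 1147.65 and 914. The pair on chromosome 16 from 78253042 to 78253203 had 751 and 785, and the triplet on chromosome 1 described above had 146 and 130. Scores were less even for the pair on chromosome 11 from 99122795 to 99123231, at 169 and 2585, and the pair on chromosome 2 from 76375980 to 76376270, at 377 and 190. In the 5 pairs each replicate 2 interval met a different replicate 1 interval. In the triplet 1 replicate 2 interval met 2 of the members.

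Uncalled groups were also compared with uncalled isolated intervals for replicate 2 peaks nearby. A replicate 2 interval lay within 1000 bp of 5 of 72 uncalled groups (6.94%, 2.29 to 15.5%) and of 95 of 1792 uncalled isolated intervals (5.30%, 4.31 to 6.44%). Within 10000 bp the counts were 30 of 72 (41.7%, 30.2 to 53.9%) and 865 of 1792 (48.3%, 45.9 to 50.6%). The intervals of these shares overlap, and a difference was not tested.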

How the data were processed

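The authors deposited 1 peak list per ChIP sample, with position, name and score. Per the file headers, peaks were called with MACS in Galaxy; coordinates follow mm9 according to the submitters' processing notes. Its version and settings, the aligner and the score formula were not given in the sources used here. Peaks were treated as called separately for each sample, because each sample has its own list. Starts were converted from the BED count from 0. Within a list, intervals did not overlap each other.

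Neighbours less than 500 bp apart were chained; a group is a chain of 2 or more. A unit (group or isolated interval) was called when any of its intervals overlapped replicate 2 by at least 1 bp. The 4 shares were compared with Fisher's exact test and conditional odds ratios, adjusted by Benjamini-Hochberg, with a threshold of 0.05; stratified values are Mantel-Haenszel estimates over 4 quartiles with an exact conditional test over the strata. Named groups are all of 4 or more intervals, the 10 called ones with the highest replicate 2 scores, the 5 uncalled ones with the highest replicate 1 scores and the 3 pairs on each side of 500 bp; others were chosen after their values were seen. The members and these rules were chosen with earlier results of these data known. On simulated lists with 115 planted groups, 38 of them called, the scripts found 115 and 38. Software was SciPy 1.17.1, statsmodels 0.14.6, pandas 2.3.3, NumPy 2.4.6 and matplotlib 3.10.9 under Python 3.11.15.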

Additional observations from a re-analysis of the deposited data

Results flagged for a closer look

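Tandem replicate 1 intervals also occurred outside chromosomes 1 to 19, in data that the comparisons above do not use. There were 16 of them among 253 intervals, in 8 groups, with scores from 50.7 to 110. Chromosome X held 12 in 6 groups, and chromosome Y and the unplaced sequences held 2 each. None of the 16 was called in replicate 2, where 41 of all 253 intervals outside chromosomes 1 to 19 (16.2%) were, 31 of 181 (17.1%) on chromosome X among them.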

How the results depend on the processing

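Wide partners (14 alternatives, lowest odds ratio 37.5 with neighbours within 1000 bp) and high-scoring partners (14 alternatives, lowest 6.30) stayed above 1 and past the threshold throughout. In 4 of the alternatives for wide partners every called group had one, so the odds ratio had no upper bound. None of these alternatives held replicate 2 width equal or removed the joining of members by 1 peak. Tandem partners stayed past the threshold in 12 of 14 alternatives, in 1 of which, the shortened replicate 2 list, the interval of the odds ratio included 1; the others gave 2.22 with neighbours within 250 bp and 2.42 with the higher-scoring 50% of replicate 1, where fewer groups were left. The odds ratio of being called, 0.786, kept its direction in 10 of 13 alternatives. It passed the threshold at 0.570 when stratified by score, and reversed to 1.20 when stratified by width, to 1.30 with the higher-scoring 50% of replicate 1 and to 2.44 with replicate 2 at the length of replicate 1; the cause was not tested. Counting groups within 100 kb of each other once, an alternative added after seeing the data, left 103 places and gave 0.907, 147, 12.8 and 3.09 for the 4 comparisons in the order of the report. No paired analysis was possible because the ChIP samples form 1 group, and no replicate could be left out because each comparison needs both lists. The planned description of sequence was not run without an mm9 genome. Without read counts, a place missing from a list cannot be called unbound.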
